A study of Mus musculus with 11 samples.

Results

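The transcripts described here belong to 9 mouse genes that take up, make, bind, break down or respond to retinoic acid, the signalling form of vitamin A. They were chosen by name, as Stra6, Dhrs3, Aldh1a1, Aldh1a2, Aldh1a3, Crabp1, Crabp2, Rarb and Cyp26b1. The choice was made with earlier results of these data known. Counts and medians of the members set beside all genes thus describe this list and do not test the pathway. All 9 were found among the 55487 gene identifiers of the deposited expression table. RNA sequencing was done on spinal cord and on mouse fetal fibroblasts (MEF), which are connective tissue cells grown in culture from fetuses. The series held 3 libraries of Morc2a p.S87L heterozygote spinal cord, 3 of wild-type spinal cord, 2 of S87L heterozygote MEF and 3 of wild-type MEF. Each library came from C57BL/6 mice, and the sources used here give no age, sex, cord level or culture passage. MORC2A is an ATPase that acts on chromatin together with the HUSH silencing complex, and in p.S87L a serine is replaced by leucine. The heterozygotes keep 1 wild-type allele. The labels do not tie each library to a separate animal or culture. The p-values thus weigh group differences against the spread between these libraries, and that spread may be technical in part.

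Retinol circulates bound to retinol-binding protein, enters cells through the membrane receptor STRA6 and is oxidised to retinaldehyde, a step that the reductase DHRS3 turns back. Retinaldehyde dehydrogenases of the ALDH1A family make retinoic acid from it, CRABP proteins carry the acid in the cytoplasm, and CYP26 enzymes hydroxylate it for clearance. Inside the nucleus it binds retinoic acid receptors, which sit with retinoid X receptors on repeated copies of a short DNA motif and raise transcription of target genes, Rarb among them. In the developing spinal cord this pathway patterns neurons along and across the cord, and ALDH1A2 is known from the meninges and from limb-level motor neurons of the embryo.

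Promoter windows are shown for Rarb, the textbook response gene whose transcript did not pass the test in either genotype comparison, and for Aldh1a2 and Cyp26b1, the members with the largest called differences in cord and MEF. RefSeq (GRCm38.p6) windows, 250 bases before to 50 bases after a transcript start, were at hand for 7 of the 9 genes. They were searched on both strands for the receptor hexamer AGGTCA, its variant AGTTCA, the form GGGTCA and the form GGTTCA, and for direct repeats of them with 5 bases between the copies, the spacing known from the Rarb promoter. The Rarb window lies on the minus strand at chr14:16575427-16575726, the Aldh1a2 window on the plus strand at chr9:71215539-71215838, and the Cyp26b1 window on the minus strand at chr6:84593761-84594060. Capitals mark the direct repeat.
Rarb: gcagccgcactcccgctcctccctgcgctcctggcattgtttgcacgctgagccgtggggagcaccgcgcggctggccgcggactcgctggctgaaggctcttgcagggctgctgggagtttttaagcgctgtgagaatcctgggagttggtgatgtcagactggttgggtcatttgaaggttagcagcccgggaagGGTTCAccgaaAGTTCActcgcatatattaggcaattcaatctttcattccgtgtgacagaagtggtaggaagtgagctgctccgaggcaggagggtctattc
Aldh1a2: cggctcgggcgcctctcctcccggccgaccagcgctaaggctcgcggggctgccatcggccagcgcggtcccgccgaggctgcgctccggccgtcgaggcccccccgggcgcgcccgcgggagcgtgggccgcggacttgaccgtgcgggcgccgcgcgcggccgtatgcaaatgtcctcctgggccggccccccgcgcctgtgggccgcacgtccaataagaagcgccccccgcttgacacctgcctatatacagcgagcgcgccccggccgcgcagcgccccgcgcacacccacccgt
Cyp26b1: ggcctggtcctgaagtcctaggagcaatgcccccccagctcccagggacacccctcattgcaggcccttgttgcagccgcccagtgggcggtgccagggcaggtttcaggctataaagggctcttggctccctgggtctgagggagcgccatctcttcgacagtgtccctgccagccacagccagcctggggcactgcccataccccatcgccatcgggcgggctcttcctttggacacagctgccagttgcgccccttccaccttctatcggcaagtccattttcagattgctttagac

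The Rarb window held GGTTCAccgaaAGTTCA, which begins at position -53 from the transcript start. A direct repeat of this spacing was found in 0.0974% of the 32851 windows of the table, whereas a lone hexamer was found in 43.7% of them and so marks little. Neither the Aldh1a2 window, with 78.0% GC and 50 CpG dinucleotides, nor the Cyp26b1 window, with 62.3% GC and 9, held any of the 4 hexamers. The median window had 52.7% GC and 7 CpG dinucleotides. These letters describe the windows and say nothing of the receptors' binding in these samples.

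Values are FPKM, fragments per kilobase of gene scaled for library depth, as the authors deposited them. Reads recovered from the steps of the FPKM values gave a depth of 19.2 to 23.3 M reads in S87L cord, 15.2 to 18.8 M in wild-type cord, 11.99 to 14.35 M in S87L MEF and 14.2 to 14.9 M in wild-type MEF. Fold changes are differences of log2(FPKM + 0.5), S87L minus wild type, which understates changes of low genes. A gene was called where its limma p, adjusted by Benjamini-Hochberg over all genes tested, was under 0.05, and genes with a mean FPKM under 0.5 in the libraries compared were not tested. Morc2a, the gene that carries the variant, read 4.71, 4.93 and 4.94 FPKM in S87L cord and 5.62, 5.66 and 5.71 FPKM in wild-type cord, and 16.4 and 16.4 FPKM in S87L MEF and 18.5, 18.8 and 18.3 FPKM in wild-type MEF, but reads summed over the gene hold both alleles and so do not check the genotype. Its cord call (-0.20, limma adjusted p = 0.0269) was lost on leaving out any cord library other than wild-type replicate 1, up to an adjusted p of 0.0940, and its MEF call (-0.17, limma adjusted p = 0.0421) on leaving out any MEF library, up to 0.161. The motor neuron marker Chat read 6.04 to 6.39 FPKM in S87L cord and 6.32 to 6.79 FPKM in wild-type cord and was at 0 in all 5 MEF libraries, whereas the collagen gene Col1a1 read 2129 to 2371 FPKM in S87L MEF and 2405 to 2442 FPKM in wild-type MEF.

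In spinal cord, transcripts of the synthesis enzymes Aldh1a2 and Aldh1a1 were higher in S87L heterozygotes than in wild type, 1.76-fold and 1.26-fold by the ratio of mean FPKM. The other 6 members tested did not pass, and Aldh1a3 was too low to test. The 2 calls, both higher, stand beside 12.9% of all genes called in that comparison, 5.17% higher and 7.71% lower. Over the 8 tested members the median log2 fold change was 0.22, against -0.02 over all genes tested. Stra6 passed the filter on low values only through its level in S87L cord, so these 8 are not a neutral sample of the pathway.

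Aldh1a2 (ENSMUSG00000013584, GRCm38 chr9:71215789-71296243, plus strand) encodes the main retinaldehyde dehydrogenase of the early embryo. It read 5.36, 5.35 and 5.54 FPKM in the 3 S87L cords, against 3.07, 3.34 and 2.84 FPKM in the 3 wild-type cords. The groups did not overlap, and the lowest S87L library stood well above the highest wild-type one. The means were 5.42 ± 0.104 FPKM in S87L cord and 3.08 ± 0.254 FPKM in wild-type cord (SD, n = 3 each), a log2 difference of 0.73 (SE 0.06, limma adjusted p = 8.50e-04). These values rest on 748 reads in S87L cord and 332 reads in wild-type cord. By size it ranked 77 of the 809 genes called higher.

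Aldh1a1 (ENSMUSG00000053279, chr19:20492715-20643465, plus strand), by far the most abundant of the 3 dehydrogenases in cord, read 77.0, 78.1 and 80.9 FPKM in S87L cord, against 62.8, 62.7 and 61.5 FPKM in wild-type cord. All S87L cords lay above all wild-type cords, and both groups were tight. The log2 difference was 0.33 (SE 0.03, limma adjusted p = 0.00138), near the median size of 0.295 among genes called higher. Aldh1a7, a close paralog whose reads may be shared with Aldh1a1, averaged 0.747 FPKM in S87L cord and 0.624 FPKM in wild-type cord, so it is about 2 orders of magnitude below. Aldh1a3, the third family member, read 0.363, 0.248 and 0.267 FPKM in S87L cord and 0.227, 0.264 and 0.281 FPKM in wild-type cord, from 82 and 56 reads in all, and its groups overlapped.

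Summed over the family, the Aldh1a genes came to 82.8 to 86.7 FPKM in S87L cord and 64.6 to 66.3 FPKM in wild-type cord. Aldh1a1 made up 93.1% to 93.3% of the sum in S87L cord and 94.6% to 95.2% in wild-type cord. Aldh1a2 supplied 6.39% to 6.48% in S87L cord and 4.39% to 5.04% in wild-type cord. The family sum was thus set by Aldh1a1 in both genotypes, with a larger share of Aldh1a2 in the S87L libraries.

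**Figure D1:**
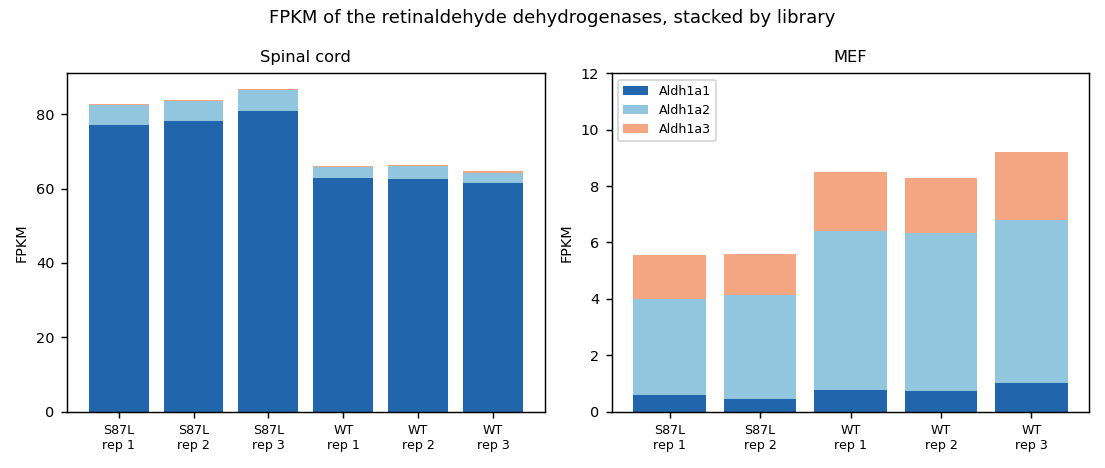
FPKM of Aldh1a1, Aldh1a2 and Aldh1a3 stacked by library, with cord and MEF on separate scales and S87L libraries left of wild-type (WT) ones. The stacks reach 82.8 to 86.7 FPKM in S87L cord and 64.6 to 66.3 FPKM in wild-type cord, and 5.56 to 5.59 FPKM in S87L MEF and 8.27 to 9.19 FPKM in wild-type MEF.

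Of the remaining cord members, Stra6, Crabp2 and Cyp26b1 had groups that did not overlap without passing the test. With Aldh1a1 and Aldh1a2 that made 5 of the 8 tested, beside 35.1% of all genes. Stra6 passed the filter only through its S87L level, so its place in this count carries no weight. Stra6, the retinol receptor, read 0.837, 0.665 and 0.818 FPKM in S87L cord and 0.464, 0.406 and 0.539 FPKM in wild-type cord, a log2 difference of 0.39 (SE 0.11, limma adjusted p = 0.0635). The 5' part of Stra6 overlaps Ccdc33 on the other strand, which stayed at or under 0.186 FPKM in each library. Crabp2, the carrier that hands retinoic acid to receptors, read 2.00, 2.198 and 2.15 FPKM in S87L cord and 1.80, 1.64 and 1.71 FPKM in wild-type cord (0.24, SE 0.07, limma adjusted p = 0.0544). Both genes sat close to the threshold and crossed it in few settings, Crabp2 in 3 of 16 alternatives and Stra6 in 3 of 15. The lowest limma adjusted p was 0.0253 for Crabp2, with quantile normalization, and 0.00698 for Stra6, with voom on recovered reads. The highest was 0.214 for Crabp2 and 0.189 for Stra6. Cyp26b1, the breakdown enzyme, pointed the other way, with 0.750, 0.781 and 0.630 FPKM in S87L cord and 0.825, 1.01 and 0.868 FPKM in wild-type cord (-0.20, SE 0.10, limma adjusted p = 0.247).

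Rarb (ENSMUSG00000017491, chr14:16430839-16819156, minus strand), the receptor gene that is itself induced by retinoic acid in many cells, read 2.11, 2.07 and 2.06 FPKM in S87L cord and 2.24, 1.77 and 1.97 FPKM in wild-type cord. The S87L values lay inside the wild-type range, and the log2 difference of 0.05 had a 95% interval of -0.14 to 0.24. The last exons of Rarb overlap Top2b on the opposite strand (6.51 to 18.9 FPKM), and the sources used here do not say whether counting used the strand. Crabp1, the other carrier, read 8.87, 8.56 and 7.75 FPKM in S87L cord and 13.2, 8.43 and 9.20 FPKM in wild-type cord, and Dhrs3 read 4.34, 4.47 and 3.88 FPKM in S87L cord and 4.72, 3.03 and 3.36 FPKM in wild-type cord. For both genes the highest library was wild-type replicate 1. Without that library Dhrs3 was called higher in S87L cord (0.36, limma adjusted p = 0.0383, against 0.19 and 0.417 with it), and the Crabp1 difference shrank to -0.07 from -0.25, with adjusted p of 0.579 without the library and 0.312 with it.

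**Figure D2:**
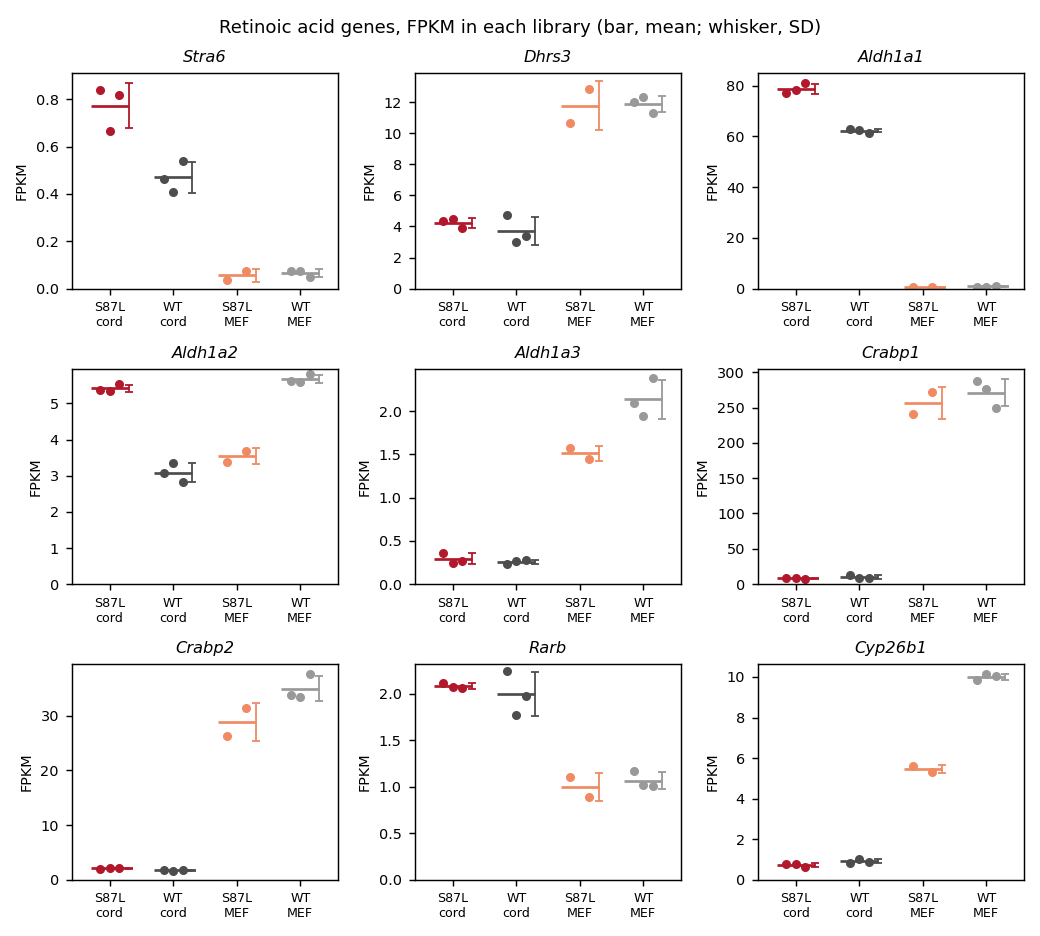
FPKM of each of the 9 genes in every library, a point per library, with the group mean as a bar and S87L left of wild type in cord and in MEF. Aldh1a2 is higher in all 3 S87L cords (5.35 to 5.54 FPKM) than in any wild-type cord (2.84 to 3.34 FPKM), and lower in both S87L MEF (3.39 and 3.69 FPKM) than in any wild-type MEF (5.61 to 5.81 FPKM).

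Several cell type marker lists moved in the same cord libraries. Of 16 tested markers of meninges and fibroblasts, a tissue in which Aldh1a2 is known to be made, 9 were called higher and none lower, with a median of 0.42. The whole list of 18 summed to 95.9 to 106.4 FPKM in S87L cord and 66.5 to 73.6 FPKM in wild-type cord, and no marker was at 0. Dcn, a matrix proteoglycan gene, differed by 1.22 and Col1a1 by 1.09, while the meningeal transporter Slc6a13 differed by 0.27 (limma adjusted p = 0.0599). Of 7 tested markers of cultured fibroblasts, 1 was called higher and 2 lower, with a median of -0.06. Schwann cell markers were called higher in 4 of 5 tested and microglia markers in 6 of 9, with none lower. So were 4 of 9 markers of pericytes and mural cells and 3 of 6 of red blood cells, with none lower. Ependyma markers were called lower in 3 of 5 tested and neuron markers in 3 of 10, with none higher. Of 7 astrocyte markers 2 were called higher and 1 lower, and of 8 oligodendrocyte markers 1 in each direction. Of 7 endothelium markers 1 was called lower and none higher. Over all genes 5.17% were called higher and 7.71% lower. Skeletal muscle markers, which spinal cord should lack, summed to 72.9 to 77.8 FPKM in S87L cord and 14.3 to 18.9 FPKM in wild-type cord, with 10 of 10 called higher and none at 0. Caudal Hox genes, whose level depends on position along the cord, summed to 34.9 to 38.9 FPKM in S87L cord and 69.0 to 75.8 FPKM in wild-type cord, with 6 of 6 tested called lower. The untested one, Hoxd10, was at 0 in S87L replicates 1 and 3, and no other of the 7 listed was at 0 in a cord library. Among markers of motor neurons, another known source of Aldh1a2 in the embryo, 0 of 11 were called, and their sums were 138.0 to 150.6 FPKM in S87L cord and 135.4 to 144.0 FPKM in wild-type cord. The part of these markers in the Aldh1a1 and Aldh1a2 differences was not tested, and in bulk tissue more cells of a type and more RNA per cell cannot be told apart.

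In MEF, transcripts of the breakdown enzyme Cyp26b1 and of the synthesis enzyme Aldh1a2 were lower in S87L heterozygotes than in wild type, at 0.545 and 0.624 of the wild-type mean. No member was called higher, and Stra6 was too low to test. The 2 calls stand beside 11.2% of all genes called, 6.32% lower and 4.91% higher. Over the 8 tested members the median log2 fold change was -0.33, against -0.01 over all genes tested.

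Cyp26b1 (ENSMUSG00000063415, chr6:84571414-84593908, minus strand) read 5.59 and 5.32 FPKM in the 2 S87L MEF libraries, against 9.85, 10.1 and 10.04 FPKM in the 3 wild-type ones. The S87L libraries lay far below every wild-type library, from 740 reads in S87L MEF and 2231 reads in wild-type MEF. Its means were 5.46 ± 0.192 FPKM in S87L MEF (SD, n = 2) and 10.01 ± 0.143 FPKM in wild-type MEF (SD, n = 3), a log2 difference of -0.82 (SE 0.05, limma adjusted p = 7.75e-04). By p it ranked 28 of all genes tested, and by size 118 of the 871 called lower. Cyp26a1 and Cyp26c1, the other members of the CYP26 family, were close to absent, with 1 and 1 reads over both S87L MEF and 10 and 1 reads over the wild-type MEF.

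Aldh1a2 read 3.39 and 3.69 FPKM in S87L MEF, against 5.63, 5.61 and 5.81 FPKM in wild-type MEF. Again the groups did not overlap, here with the S87L libraries below. The means of 3.54 ± 0.212 FPKM in S87L MEF (SD, n = 2) and 5.68 ± 0.112 FPKM in wild-type MEF (SD, n = 3) gave a log2 difference of -0.61 (SE 0.06, limma adjusted p = 0.00288). Aldh1a2 was the major Aldh1a transcript of these cells, at 61.0% to 66.1% of the family sum in S87L MEF and 63.2% to 67.8% in wild-type MEF. Its share of the sum thus overlapped between genotypes while the sum was lower, at 5.56 and 5.59 FPKM in S87L MEF and 8.27 to 9.19 FPKM in wild-type MEF.

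Aldh1a3, Aldh1a1 and Crabp2 were also lower in both S87L MEF libraries than in any wild-type one, without passing the test, which made 5 of 8 tested members without overlap beside 45.8% of all genes. Aldh1a3 read 1.57 and 1.452 FPKM in S87L MEF and 2.09, 1.94 and 2.38 FPKM in wild-type MEF (-0.39, SE 0.10, limma adjusted p = 0.0571). Aldh1a1 was low, at 0.602 and 0.441 FPKM in S87L MEF and 0.786, 0.728 and 1.001 FPKM in wild-type MEF (-0.39, SE 0.16, limma adjusted p = 0.165), from 66 reads in S87L MEF and 173 reads in wild-type MEF. Its paralog Aldh1a7 averaged 0.316 FPKM in S87L MEF and 0.382 FPKM in wild-type MEF, from 17 reads in S87L MEF and 33 reads in wild-type MEF. Crabp2 read 26.4 and 31.4 FPKM in S87L MEF and 33.8, 33.5 and 37.6 FPKM in wild-type MEF (-0.28, SE 0.09, limma adjusted p = 0.101). Without S87L MEF replicate 2, the higher of the pair, the Crabp2 difference was -0.40 with an adjusted p of 0.0389. That fit holds 1 S87L library, the one farther from wild type, and takes its spread from the wild-type libraries alone. With voom on recovered reads all 3 genes were called, at adjusted p of 0.0116 for Aldh1a3, 0.0419 for Aldh1a1 and 0.00951 for Crabp2. Voom called 2758 of 13639 genes in MEF, against 1547 of 13773 in the main fit. Aldh1a3 and Crabp2 each stayed uncalled in 12 of 15 alternatives, and Aldh1a1 in 12 of 14.

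The other MEF members showed no call. Crabp1, the most abundant of the 9 transcripts in these cells, read 240.6 and 272.4 FPKM in S87L MEF and 287.6, 276.2 and 249.4 FPKM in wild-type MEF, and the ranges overlapped (-0.08, 95% interval -0.27 to 0.11). Dhrs3 read 10.65 and 12.88 FPKM in S87L MEF and 12.01, 12.3 and 11.3 FPKM in wild-type MEF (-0.02, 95% interval -0.22 to 0.18). For Rarb the values were 1.10 and 0.893 FPKM in S87L MEF and 1.17, 1.02 and 1.01 FPKM in wild-type MEF (-0.06, 95% interval -0.36 to 0.23). These intervals are wide enough to hold changes of the size seen for Aldh1a1 in cord only in the case of Rarb, and there only downwards. Stra6 rested on 3 and 5 reads in S87L MEF and on 6, 6 and 4 reads in wild-type MEF.

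Fibroblast markers moved in the same MEF libraries. Of 14 tested markers of meninges and fibroblasts, 6 were called lower and 1 higher, beside 6.32% and 4.91% of all genes. The 18 listed summed to 3645 to 3927 FPKM in S87L MEF and 4340 to 4357 FPKM in wild-type MEF. Col1a1 made up most of that sum, and neither it nor Col1a2 was called (limma adjusted p = 0.230 and 0.0510). Slc22a6 and Slc6a13 were at 0 in all 5 libraries, Slc47a1 in both S87L libraries and some wild-type ones, and Slc13a3 in some S87L ones. Of 10 markers of cultured fibroblasts 4 were called lower and 0 higher, with sums of 2565 to 2579 FPKM in S87L MEF and 2586 to 2651 FPKM in wild-type MEF and none at 0. Their part in the Cyp26b1 and Aldh1a2 differences was not tested.

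A limma fit over both tissues tested, by its interaction term, how far the genotype difference in MEF departed from that in cord. Aldh1a2 had the largest term of the members, -1.34 (SE 0.09, adjusted p = 9.77e-06), with values of -0.61 in MEF and 0.73 in cord. It was called in opposite directions in the 2 tissues, higher in cord and lower in MEF, as were 74 genes or 0.597% of the 12389 genes tested in both. Aldh1a1 (-0.72, adjusted p = 0.00256), Cyp26b1 (-0.62, adjusted p = 0.00267) and Crabp2 (-0.52, adjusted p = 0.00984, or 0.0701 with voom) also had terms below 0. The term of Aldh1a3 (-0.45, limma adjusted p = 0.0477) was lost in 16 of 19 alternative settings, each left-out library among them, with an adjusted p of up to 0.140. In all, 5 of the 8 members tested had a term below 0 that passed, beside 6.98% of all genes with a lower term, 6.14% with a higher one and 13.1% with either. Aldh1a3 was too low to test in cord and entered this fit only through its MEF level, so its place in that count carries no weight. Rarb (-0.12), Dhrs3 (-0.21) and Crabp1 (0.17) did not pass, with adjusted p of 0.592, 0.529 and 0.649.

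**Figure D3:**
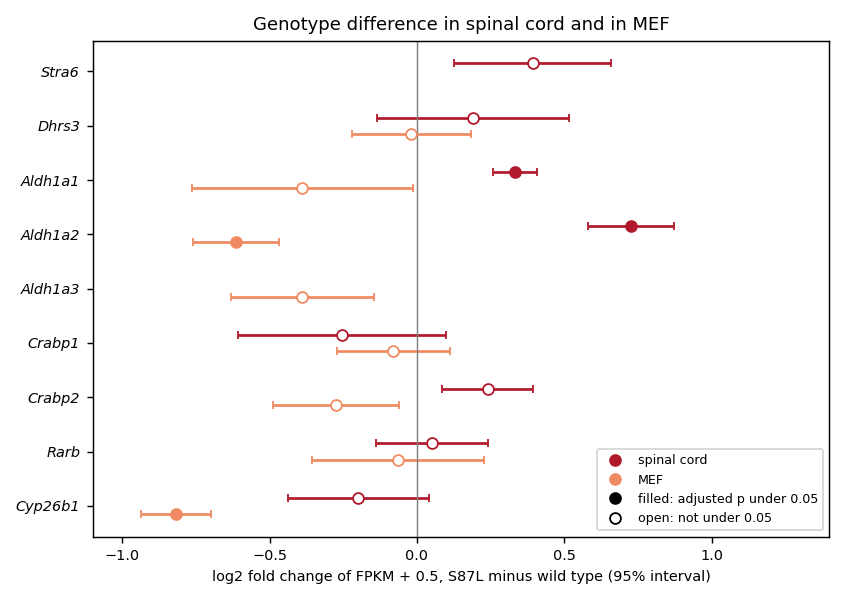
Log2 fold change of FPKM + 0.5, S87L minus wild type, with its 95% interval for each member tested in cord and in MEF, with filled points where the adjusted p was under 0.05. Aldh1a2 lies at 0.73 in cord and -0.61 in MEF, and Cyp26b1 at -0.20 in cord and -0.82 in MEF.

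The ratio of the Aldh1a sum to Cyp26b1, a ratio of synthesis to breakdown transcripts in FPKM, describes both tissues at once. It was 110.3, 107.1 and 137.5 in S87L cord and 80.1, 65.6 and 74.4 in wild-type cord, and 0.995 and 1.05 in S87L MEF and 0.864, 0.817 and 0.916 in wild-type MEF. The ratio was higher in each S87L library than in any wild-type library of its tissue, in MEF with both terms lower. In cord the Aldh1a sum was higher and Cyp26b1 was lower. Mean Cyp26b1 was 0.721 FPKM in S87L cord and 0.901 FPKM in wild-type cord, from 237 and 228 reads. That Cyp26b1 difference was not called (limma adjusted p = 0.247). This ratio of transcripts was chosen with the values known, and no retinoic acid was measured.

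Wild-type libraries gave the order of the members' levels. In cord, mean FPKM ran from Aldh1a1 (62.3) through Crabp1 (10.3), Dhrs3 (3.70), Aldh1a2 (3.08), Rarb (2.00), Crabp2 (1.71), Cyp26b1 (0.901) and Stra6 (0.470) to Aldh1a3 (0.257). Dhrs3 and Aldh1a2 were neighbours within their spread, with 3.70 ± 0.896 and 3.08 ± 0.254 FPKM, and so were Rarb and Crabp2, with 2.00 ± 0.237 and 1.71 ± 0.0803 FPKM (SD, n = 3 each). In MEF the order was Crabp1 (271.1), Crabp2 (35.0), Dhrs3 (11.9), Cyp26b1 (10.01), Aldh1a2 (5.68), Aldh1a3 (2.14), Rarb (1.06), Aldh1a1 (0.838) and Stra6 (0.0662). Set against MEF, wild-type cord had 74.3-fold the level of Aldh1a1 and 0.0379 of that of Crabp1, and it had less Aldh1a2, Aldh1a3, Crabp2, Cyp26b1 and Dhrs3. All 8 members tested differed without overlap, 2 higher and 6 lower in cord, but 87.6% of all genes were called there, 47.4% higher and 40.3% lower, and 88.5% had no overlap. Tissue and culture cannot be told apart. Rarb was higher in wild-type cord by 0.67 (limma adjusted p = 1.86e-04) as deposited and by 0.11 (adjusted p = 0.277) after quantile normalization, a scaling that moved the median of all genes to -0.15 from 0.12. The other 7 members tested kept their sign and their call in all 15 alternative settings.

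The genes whose levels ran most like those of the 3 called members were picked by Pearson r of log2(FPKM + 0.5) over the 11 libraries. For Aldh1a1 they were Phyh, Fbxo9 and Synm (r of 0.9997, 0.9996 and 0.9996), and for Cyp26b1 they were B3gnt9, Adamts9 and Scube3 (0.9986, 0.9985 and 0.998). Both sets of r reflect the gap between cord and MEF, which these libraries share. Aldh1a2, whose levels overlap between tissues, was followed less closely, by Hadha (0.967), Jcad (0.949) and Vps26b (0.930).

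Beyond the members, 85 other genes of retinoid transport, metabolism and response were listed. In cord 60 of them were tested, 4 were called higher and 2 lower, and their median was -0.01. These 6 calls are a share of the tested genes near the 12.9% of all genes. Rbp4, the serum retinol carrier, read 8.59, 9.67 and 8.65 FPKM in S87L cord and 5.55, 4.53 and 6.31 FPKM in wild-type cord (0.68, SE 0.11, limma adjusted p = 0.00941, or 0.0539 in 1 fit of all 11 libraries). Every S87L library was above every wild-type library. Fabp4, a fatty acid binding protein of fat cells and macrophages, differed by 0.84 (limma adjusted p = 0.00266) from low levels of 1.05 ± 0.0469 FPKM in S87L cord and 0.362 ± 0.0290 FPKM in wild-type cord (SD, n = 3 each). Like Stra6, it passed the filter on low values only through its S87L level, so its place among the 4 higher calls carries no weight for the list.

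Calls of 3 further genes in cord were fragile. Rxra, a retinoid X receptor, differed by 0.23 (adjusted p = 0.0397), Fabp5, which can deliver retinoic acid to another nuclear receptor, by -0.21 (adjusted p = 0.0226) and Dgat1, which can esterify retinol, by -0.30 (adjusted p = 0.0392). Rxra lost its limma call on leaving out either of wild-type replicates 2 and 3 or either of S87L replicates 1 and 2, with adjusted p up to 0.123. Fabp5 lost it without any one of the libraries other than S87L replicate 3 (up to 0.0870), and Dgat1 without any one other than wild-type replicate 2 (up to 0.118). Without wild-type replicate 3, and likewise without S87L replicate 1 or 2, the fit left 3 calls in place of 6. By role, 0 of 11 tested oxidoreductases and 0 of 20 tested known retinoic acid targets were called in cord, and 1 of 19 tested receptors and cofactors, beside 12.9% of all genes. Rara, Rarg, Rxrb, Rxrg and the retinol dehydrogenase Rdh10 were not called, with differences between -0.14 and 0.12.

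In MEF 52 of the other retinoid genes were tested, 2 were called higher and 8 lower, with a median of -0.02. Over all genes 11.2% were called, 4.91% higher and 6.32% lower. Adh7, an alcohol dehydrogenase that oxidises retinol, read 1.78 and 1.93 FPKM in S87L MEF and 3.96, 3.62 and 3.66 FPKM in wild-type MEF (-0.85, SE 0.07, limma adjusted p = 0.00213). Adh1, of the same family, averaged 0.890 ± 0.0651 FPKM in S87L MEF (n = 2) and 1.62 ± 0.169 FPKM in wild-type MEF (n = 3, SD), a difference of -0.61 (limma adjusted p = 0.0210). Zfp423, a zinc finger cofactor of retinoic acid receptors, read 1.20 and 1.44 FPKM in S87L MEF and 2.48, 2.53 and 2.41 FPKM in wild-type MEF (-0.71, SE 0.09, limma adjusted p = 0.00675). Rarres1, named for its response to retinoids, fell by 0.56 (adjusted p = 0.00968) and Fabp5 by 0.31 (adjusted p = 0.00693) on the log2 scale. Cyp1b1, a cytochrome P450 that can oxidise retinol, read 52.3 and 47.9 FPKM in S87L MEF and 39.2, 38.8 and 39.3 FPKM in wild-type MEF (0.35, SE 0.05, limma adjusted p = 0.00816).

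Rxra was called in both tissues with opposite signs, higher in S87L cord and lower in S87L MEF, at -0.22 in MEF (limma adjusted p = 0.0269). It read 16.9 and 17.4 FPKM in S87L MEF and 20.5, 19.7 and 19.9 FPKM in wild-type MEF, and its interaction term was -0.45 (limma adjusted p = 0.00355). In MEF alone Rxra and Adh1 lost their calls when any library other than S87L replicate 2 was left out, with limma adjusted p up to 0.0992 and 0.0838. Lpl (-0.36, adjusted p = 0.0256) and Zfp503 (0.22, adjusted p = 0.0248) lost theirs without any one of the 5, with limma adjusted p up to 0.0947 and 0.0901. The 10 calls came to 5 without wild-type replicate 1, 2 or 3 or without S87L replicate 1. By role, 2 of 11 tested oxidoreductases, 2 of 4 retinol carriers and storage genes and 2 of 16 receptors and cofactors were called lower, and 1 of 18 known targets was called in each direction. Over all genes 6.32% were called lower and 4.91% higher, and these lists are short.

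**Figure D4:**
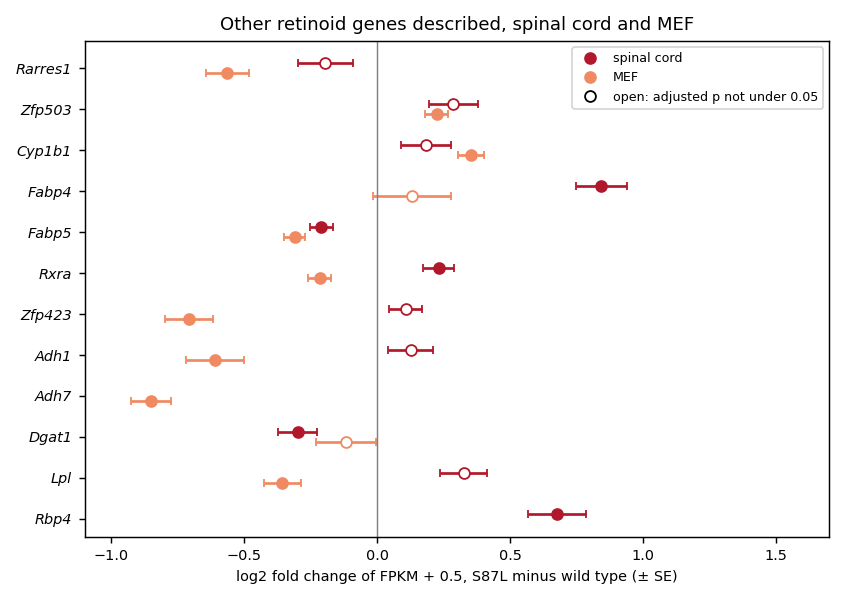
Log2 fold change of FPKM + 0.5, S87L minus wild type, with its SE, for the other retinoid genes described here, each called in cord or in MEF, with open points where the adjusted p was not under 0.05. Rxra lies right of 0 in cord (0.23) and left of 0 in MEF (-0.22), and Fabp5 lies left of 0 in both (-0.21 and -0.31).

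**Figure D5:**
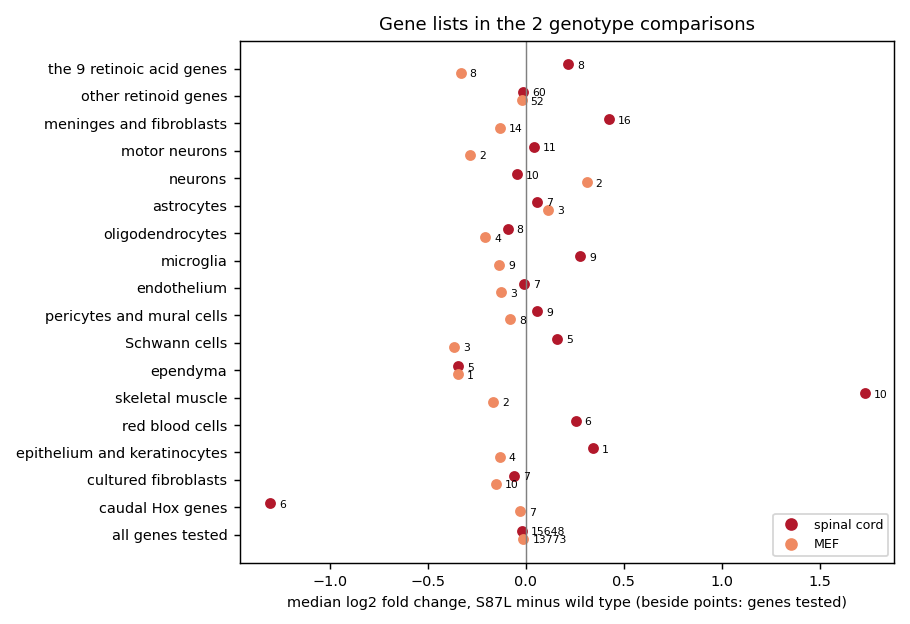
Median log2 fold change of FPKM + 0.5, S87L minus wild type, over the tested genes of each list, with the number tested beside each point. The 9 retinoic acid genes lie at 0.22 in cord and -0.33 in MEF, the other retinoid genes at -0.01 and -0.02, skeletal muscle at 1.73 and caudal Hox genes at -1.31 in cord, and all genes at -0.02 and -0.01.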

How the data were processed

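RNA from spinal cord and MEF was taken with TRIzol and made into libraries with a NEBNext Ultra II Directional kit, per the labels' protocols. The authors deposited FPKM values for 55487 Ensembl identifiers in 11 libraries. Trimmomatic 0.39, HISAT2 2.2.1, Picard 2.25.5, HTSeq 0.11.3 and GRCm38 are named per the submitters' processing notes. The annotation release, the use of strand in counting and any poly(A) or ribosomal step go unstated in the sources used here.

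Symbols came from GENCODE M21 (GRCm38), which held 55227 of the identifiers. Dividing the deposited FPKM by the value of 1 read gave whole reads, within 0.05, for 98.6% to 99.0% of values per library. Libraries of a group always differed by more than counting error (chi-square 1.26 to 4.67 per degree of freedom). In MEF the S87L pair lay at 3.95 and the wild-type pairs at 1.26 to 1.80. Cord pairs lay at 1.73 to 3.58 in S87L and 1.51 to 4.67 in wild type. No library was merged as a repeat deposit, and each counted as 1 replicate, although separate preparations of 1 RNA can differ as much. FPKM are relative values, so a change in a few abundant genes can shift all others.

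Each comparison was fitted with limma 3.58.1 in R 4.3.3 (trend, robust) on log2(FPKM + 0.5). Genes whose FPKM averaged under 0.5 in its libraries were left out, with Benjamini-Hochberg adjustment over all genes tested and calls under 0.05. The fit was tested on simulated reads with an assumed spread. Of 1.5-fold changes it recovered 80% in cord, 66% in MEF and 45% for the interaction term. Of 2-fold changes it recovered 95%, 86% and 84%. A gene that was not called can thus still differ. Among genes left unchanged it called 12 in cord, 32 in MEF and 13 for the interaction term, beside 100 changed genes at each fold. A called gene can thus be a false call, more so in MEF. Changes were simulated only above the lowest levels tested, so recovery of low genes was not measured. SE is the moderated standard error. Alternatives were other pseudocounts, filters and scalings, voom on the recovered reads, a fit of all 11 libraries, a replicate block and each library left out. Library titles gave groups and replicate numbers.

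The members and lists were chosen with earlier results of these data known. Named were all 9 members, Morc2a, fixed receptors, enzymes and carriers, fixed markers, and up to 6 other retinoid genes per direction by smallest p among calls with groups that do not overlap. Some genes that this rule names are counted but not reported here.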

Additional observations from a re-analysis of the deposited data

Results flagged for a closer look

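Of the 8 members tested, 5 had a called limma interaction term, all below 0, in a joint fit with adjustment over 15811 genes. That term asks whether the difference between S87L and wild type in MEF departed from that in cord. Over all genes 13.1% had a called term, 6.98% below 0 and 6.14% above 0. The members were chosen with earlier results of these data known, so the count describes them and is no test of the pathway. The MEF minus cord term was -1.34 for Aldh1a2, with an adjusted p of 9.77e-06, and its sign differed between the tissues. For Aldh1a1 it was -0.72 (0.00256) and for Crabp2 it was -0.52 (0.00984), with values below 0 in MEF and above 0 in cord for both. Cyp26b1 had a term of -0.62 (0.00267), with values below 0 in both tissues. The term for Aldh1a3 was -0.45 (0.0477), which was lost in 16 of 19 alternatives. Aldh1a3 was too low to test in cord and entered the joint fit only through its MEF level. Crabp2 was called in neither tissue alone, and its term was lost with voom (adjusted p = 0.0701). Of 16 tested markers of meninges and fibroblasts, 8 had a called term below 0, 8 were not called and 0 had a called term above 0. Their median term was -0.60, and Foxc2, 1 of those not called, was called higher in S87L MEF (0.35, limma adjusted p = 0.0234). Other lists held called terms below 0 too, with 10 of 10 skeletal muscle markers, 7 of 9 of microglia and 4 of 6 of Schwann cells. Of 7 astrocyte markers, 5 had one below 0 and 1 above 0. Called terms lay above 0 for 2 of 5 ependyma markers and 6 of 7 caudal Hox genes, with none below. The part of these lists in the members' terms was not tested.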

How the results depend on the processing

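Counting single genes over all settings, 844 of 971 values kept their sign and their side of the threshold, 94 lost a call, 15 gained one and 18 changed sign, none of them called. In cord, Aldh1a1 and Aldh1a2 were called in all 16 alternatives (limma adjusted p up to 0.0141 and 0.00776). In MEF, Cyp26b1 was called in all 15 (up to 0.0323) and Aldh1a2 in 14. Called members of the 9 came to 4 in cord with quantile normalization and 4 with 1 fit of all libraries, against 2, to 5 in MEF with voom and 5 with 1 fit, against 2, and to 3 interaction terms with voom, against 5. Of the other retinoid genes, voom called 13 in cord, against 6, and no filter left 6 in MEF, against 10. Over all genes MEF calls were 788 with no filter and 2758 with voom, against 1547, and voom called 2850 in cord, against 2016. Leaving out 1 library gave 838 to 1637 calls in cord, 565 to 1753 in MEF and 1373 to 2261 interaction terms, against 2075. Without an S87L MEF library that arm holds 1, assumed to vary like the others. Members called then ranged over 2 to 3 in cord, 2 to 3 in MEF and 4 to 4 terms, and other retinoid genes over 3 to 5 in cord and 5 to 9 in MEF. The causes were not tested. Median ratio scaling made 58.5% of cord calls higher, against 40.1%.

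The replicate block gave 182 MEF calls, with 1 member and 1 other retinoid gene, and took Aldh1a2 to an adjusted p of 0.0528. In cord it gave 1663 calls with 2 members. Same-numbered libraries deviated together with r of 0.149, -0.0505 and 0.111 in cord and -0.0696 and -0.0277 in MEF, and not every cord library followed its own number best, so the numbers are not shown to pair libraries.

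The signs that changed were of small, uncalled log2 differences. In cord, leaving out 1 library put Rara at -0.13 to 0.035, Rarg at -0.17 to 0.0047, Rdh10 at -0.082 to 0.031 and Rarb at -0.015 to 0.12, with Rarg at 0.0024 and Rara at 0.017 without wild-type replicate 1. Quantile normalization put Rara at 0.043, Rarg at 0.022 and Rdh10 at 0.031. In MEF, leaving out 1 library put Rarb at -0.16 to 0.036, Crabp1 at -0.17 to 0.0096, Dhrs3 at -0.15 to 0.11, Rarg at -0.014 to 0.039 and Rdh10 at -0.00065 to 0.13, and median ratio scaling put Dhrs3 at 0.00043. The Crabp1 interaction lay at -0.012 to 0.30, lowest without wild-type cord replicate 1. Depth limits Stra6 in MEF and Aldh1a3 in cord, which rest on few reads.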

Other observations

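Genes called higher in S87L cord and lower in S87L MEF numbered 74, or 0.597% of those tested in both. Of the 18 listed markers of meninges and fibroblasts, 5 were among them, namely Col3a1, Dcn, Fmod, Igfbp2 and Lum. Others on the list differed in MEF, where Foxc2 was called higher (0.35) and Ogn (0.02) and Col1a1 (-0.11) were not called. Dcn read 11.1, 11.6 and 12 FPKM in S87L cord and 4.90, 4.65 and 4.47 FPKM in wild-type cord, and 9.55 and 8.62 FPKM in S87L MEF and 17.5, 18.0 and 17.2 FPKM in wild-type MEF. Aldh1a2 and Rxra had the same signs, and a cause shared with these markers was not tested. A total of 103 genes (0.831% of those tested in both tissues) were called lower in both, Fabp5 among them.

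The 9 markers of microglia, several of which macrophages also express, summed to 227.0 to 239.3 FPKM in S87L MEF and 266.2 to 267.6 FPKM in wild-type MEF, and to 353.6 to 368.2 FPKM in S87L cord and 291.4 to 311.5 FPKM in wild-type cord.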
